A study of Mus musculus with 12 samples.

Results

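The genes described here make prostaglandins, break them down and receive PGE2, the prostaglandin best known in the gut. They were chosen by symbol as 10 of the 24054 genes in the count files: the synthesis enzymes Ptgs1, Ptgs2, Ptges, Ptgis and Tbxas1, the breakdown enzyme Hpgd, and the PGE2 receptors Ptger1, Ptger2, Ptger3 and Ptger4. Poly(A) RNA was sequenced in 12 mouse libraries, 4 in each of 3 groups. N is normal colon of wild type genotype, BT-T is tumour of genotype BrafV600E;Tgfbr2-/-, and BTPRZ-T is tumour of genotype BrafV600E;Tgfbr2-/-;Rnf43-/-/Znrf3-/-;p16 Ink4a-/-. The tumours grew from edited colonic organoids engrafted into mice, so the epithelium carries the alleles and the stroma comes from the host. Every library, normal colon included, is labelled with the immunodeficient strain NSG, whose mice lack mature lymphocytes. Both tumour groups share BrafV600E, an active form of a growth-signalling kinase, and the loss of Tgfbr2, a receptor for TGF-beta. BTPRZ-T also lacks p16 Ink4a, which holds back the cell cycle, and Rnf43 and Znrf3, ligases that clear WNT receptors from cells. Age and treatment are not given in the labels. Whether separate animals gave the 4 libraries of a group is not stated, so p-values measure the spread between these libraries, which may be technical.

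Prostaglandins are short-lived lipids made from arachidonic acid. The cyclooxygenases encoded by Ptgs1, which is made steadily in many cells, and Ptgs2, which is induced by growth factors and inflammation, form the shared precursor PGH2. Ptges turns PGH2 into PGE2, Ptgis into prostacyclin and Tbxas1 into thromboxane A2, while Hpgd oxidizes PGE2 and so ends its action. In the colon PGE2 acts on epithelium and stroma through 4 receptors: Ptger1 encodes EP1, which raises calcium, Ptger2 and Ptger4 encode EP2 and EP4, which raise cyclic AMP, and Ptger3 encodes EP3, which mainly lowers it. A high PTGS2 and a low HPGD level is a known feature of many human colorectal tumours.

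Promoters of 8 of the 10 genes were found in the RefSeq table for GRCm38.p6, each from 250 bases before to 50 bases after the start that RefSeq gives, and those of Ptgis and Ptger1 were not. The 4 printed here belong to the inducible cyclooxygenase and to Hpgd, Ptger3 and Ptger4, the breakdown enzyme and the receptors that differed between tumour and normal colon below. Capitals mark matches to 7 motifs searched on both strands.
Ptgs2: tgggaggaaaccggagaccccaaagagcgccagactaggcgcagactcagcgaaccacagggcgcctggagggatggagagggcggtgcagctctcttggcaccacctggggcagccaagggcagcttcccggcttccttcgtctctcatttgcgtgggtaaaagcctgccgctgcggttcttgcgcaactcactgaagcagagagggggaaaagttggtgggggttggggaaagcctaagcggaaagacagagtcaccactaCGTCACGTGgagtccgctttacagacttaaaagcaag
Hpgd: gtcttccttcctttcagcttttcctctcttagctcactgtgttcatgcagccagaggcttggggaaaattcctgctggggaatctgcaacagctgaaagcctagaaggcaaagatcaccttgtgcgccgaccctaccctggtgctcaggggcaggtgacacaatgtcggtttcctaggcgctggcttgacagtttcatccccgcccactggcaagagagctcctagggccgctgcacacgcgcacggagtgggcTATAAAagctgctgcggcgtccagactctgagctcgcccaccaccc
Ptger3: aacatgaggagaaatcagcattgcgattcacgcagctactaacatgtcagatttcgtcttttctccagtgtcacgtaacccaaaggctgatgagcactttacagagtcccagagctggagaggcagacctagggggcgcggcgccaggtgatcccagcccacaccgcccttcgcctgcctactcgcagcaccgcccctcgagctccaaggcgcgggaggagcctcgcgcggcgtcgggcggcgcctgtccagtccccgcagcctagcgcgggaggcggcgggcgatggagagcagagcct
Ptger4: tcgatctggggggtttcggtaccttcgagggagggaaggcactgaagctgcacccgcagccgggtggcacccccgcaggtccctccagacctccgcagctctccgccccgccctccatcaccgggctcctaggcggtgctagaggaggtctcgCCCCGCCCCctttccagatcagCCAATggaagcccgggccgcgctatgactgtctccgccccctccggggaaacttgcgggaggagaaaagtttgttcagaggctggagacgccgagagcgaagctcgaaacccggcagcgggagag
The Ptgs2 sequence lies at chr1:150099781-150100080 on the plus strand. Its capitals begin at base 264 with TGACG read on the opposite strand, a part of the cyclic AMP response element TGACGTCA, which overlaps the E-box CACGTG from base 267. The short site is in 21.0% and the E-box in 7.24% of the 27025 promoters in the table, and the whole element, in 1.88%, is in none of the 8. The Hpgd sequence, at chr8:56294302-56294601 on the plus strand, holds a TATA box, TATAAA, which 14.2% of promoters hold. This match begins at base 255 of the window, and like both Ptgs2 matches it lies after the RefSeq start. The GENCODE start of Hpgd, 56294585, is further along the same window, so the match lies before that start. The Ptger4 sequence, at chr15:5244138-5244437 on the minus strand, holds the GC box GGGGCGGGG on the opposite strand (11.6% of promoters) and a CCAAT box, CCAAT (37.9%). The Ptger3 sequence, at chr3:157566626-157566925 on the plus strand, holds none of the 7, as is also the case for Ptgs1 and Ptges. Of the promoters not printed, that of Tbxas1 holds a TATA box on both strands and the AP-1 site TGANTCA, which 7.93% of promoters hold, and that of Ptger2 a CCAAT box. The RefSeq starts need not be those of the GENCODE positions printed with each gene, and for Ptges and Tbxas1 the RefSeq window lies inside the GENCODE gene. A match describes letters in this window and does not show that a factor binds there.

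The libraries held 15.7M to 26.1M gene reads each. N replicate 2 stood apart from the other normal libraries, with 14175 genes holding a read against 16152 to 16432, and BTPRZ-T replicates 1 and 4 held fewer genes (14697 and 13450) than the other BTPRZ-T libraries (16131 and 16438). Results are therefore given with all 12 libraries, and for the 10 genes also without N replicate 2 or without these 3 libraries where that changes a call. The labelled tissue was checked by summed markers: 7 epithelial markers came to 7380 to 15800 CPM, reads of a gene scaled to a common library total, in every library, and no epithelial marker was without reads in any group. The 7 fibroblast markers came to 1060 to 1780 CPM in normal colon, to 8120 to 16200 across BT-T and 1810 to 7970 across BTPRZ-T. The 7 markers of absorptive colonocytes came to 2720 to 6110 CPM in normal colon and to 487 to 1890 and 303 to 1370 in the tumour groups in the same order. These are whole tissues, so fewer cells of a type and less RNA per cell cannot be told apart in any result that follows.

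**Figure D1:**
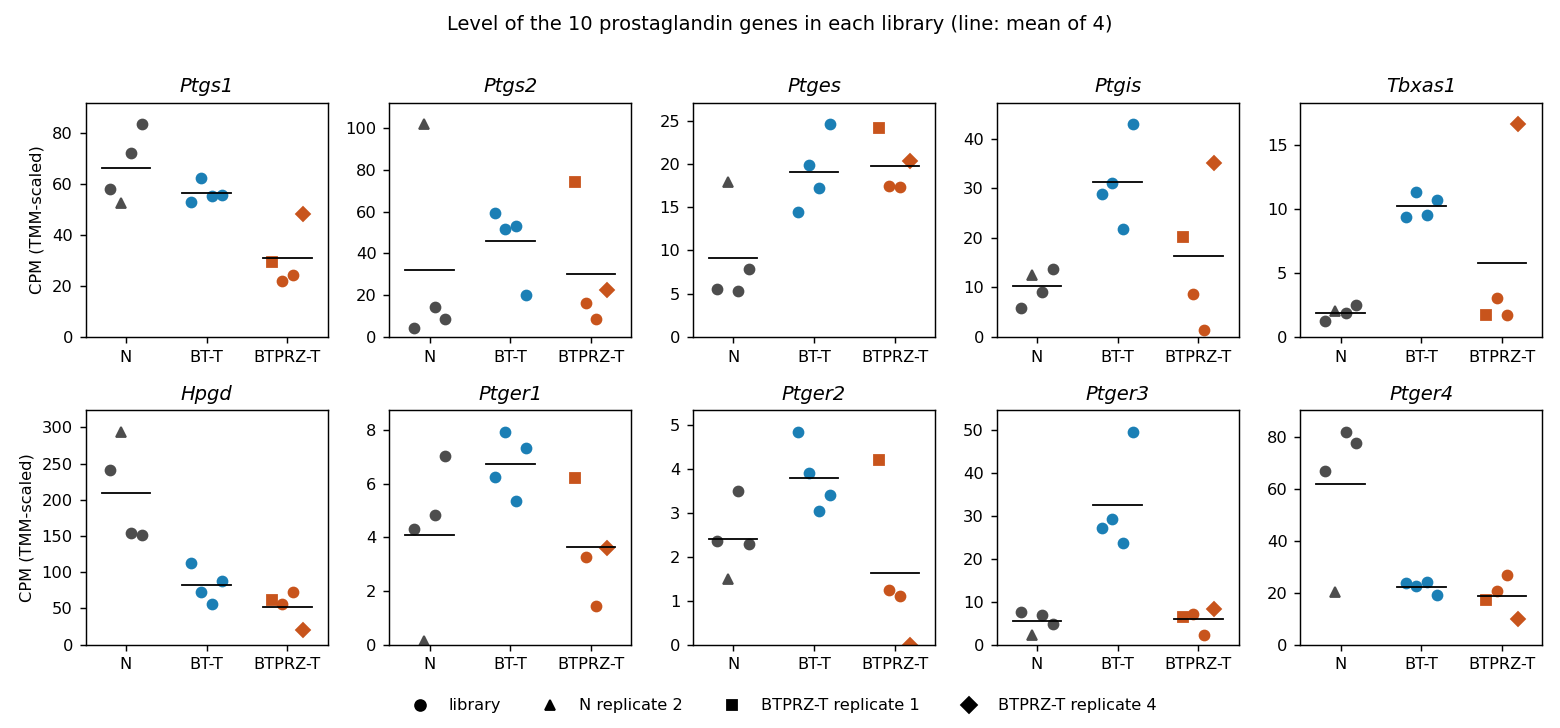
Each panel shows 1 gene, with CPM after TMM scaling on a linear axis from 0, 1 point per library and a line at the mean of 4. Triangles mark N replicate 2, squares BTPRZ-T replicate 1 and diamonds BTPRZ-T replicate 4. Ptger3 lies between 23.7 and 49.5 CPM in BT-T and at most at 8.20 CPM in the other groups.

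A gene was called where its adjusted p in the edgeR quasi-likelihood test, Benjamini-Hochberg over 14860 genes, was under 0.05, and all 10 genes passed the filter on low counts. In BT-T against N, 4 of the 10 were called, where 8.57% of all genes were. The 2 higher were Tbxas1 and Ptger3 (background 5.67%), and the 2 lower were Hpgd and Ptger4 (2.90%). In BTPRZ-T against N, 3 of 10 were called against 11.8% of all genes, all 3 lower (Ptgs1, Hpgd and Ptger4; background 6.18%), and none was higher (5.66%). In BTPRZ-T against BT-T, 1 of 10 was called, Ptger3, which was lower, where 0.754% of all genes were called, 0.599% lower and 0.155% higher. The median log2 fold change of the 10 genes in these 3 comparisons, in that order, was 0.69, -0.14 and -0.84, beside -0.10, -0.10 and -0.03 over all genes tested. The libraries of both groups did not overlap for 4, 2 and 2 of the 10 genes, where 22.4%, 14.5% and 24.2% of all genes did not. Without N replicate 2 the numbers called were 4, 4 and 2, against 13.5%, 32.3% and 18.0% of all genes, and the medians of the 10 were 1.05, -0.35 and -0.85. The libraries then did not overlap for 7, 4 and 2 of the 10, against 38.4%, 38.2% and 24.2% of all genes. Without the 3 libraries that stood apart, 7, 5 and 7 were called, against 28.7%, 34.9% and 24.5%, with medians of 1.11, -0.97 and -1.59. There was then no overlap for 7, 6 and 7 of the 10, against 38.4%, 57.3% and 49.1% of all genes.

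**Figure D2:**
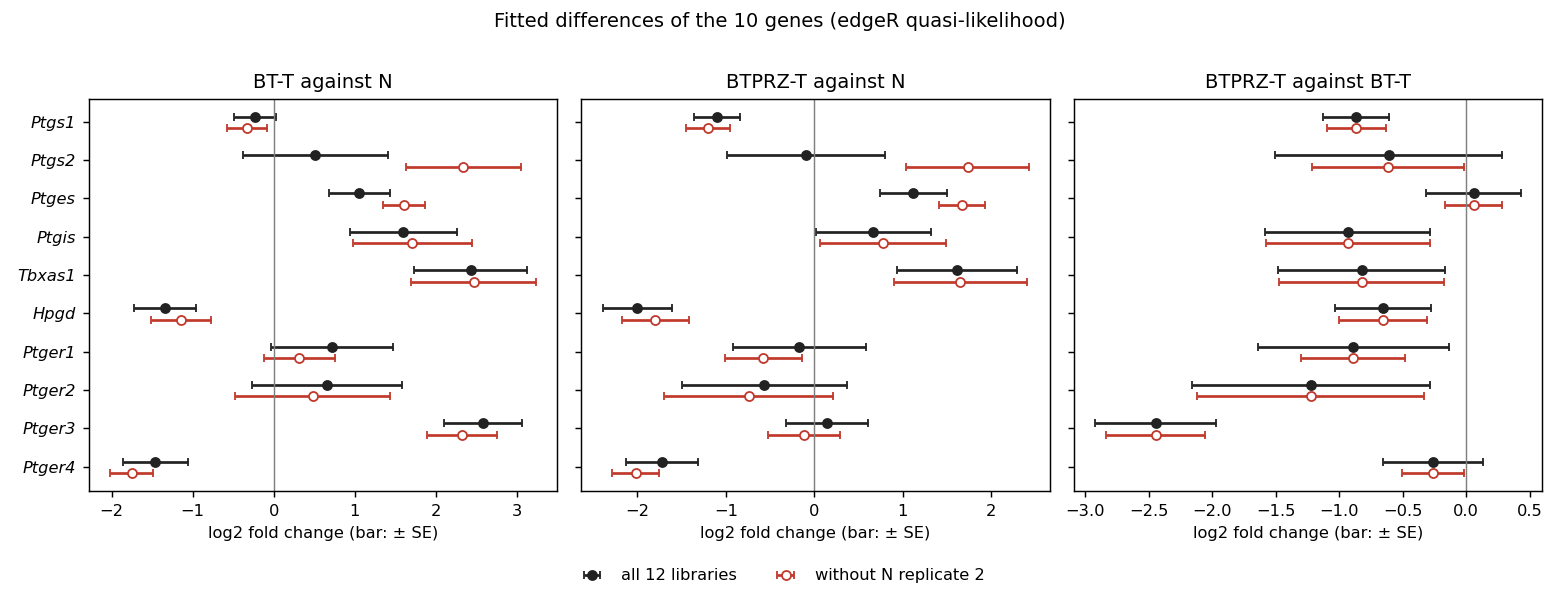
Points give the log2 fold change of each gene on the x axis in the 3 comparisons, with bars of ± 1 standard error, filled for all 12 libraries and open without N replicate 2. The value of Ptgs2 in BT-T against N is 0.51 with all libraries and 2.34 without N replicate 2, while Ptger3, Hpgd and Ptger4 stay on their side of 0 in that panel.

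Among the cyclooxygenases, Ptgs1 fell in BTPRZ-T and Ptgs2 was not called in any comparison with all libraries. Ptgs1 (chromosome 2, 36230426 to 36252272, plus strand) stood at 57.9, 52.4, 72.1 and 83.5 CPM in N replicates 1 to 4, at 52.8, 62.2, 55.3 and 55.7 CPM in BT-T and at 29.4, 22.1, 24.2 and 48.2 CPM in BTPRZ-T. All 4 BTPRZ-T libraries lay under every library of the other groups. The difference of BTPRZ-T from N was -1.10 ± 0.26 on the log2 scale, a fold of 2.14 (SE from the fit, adjusted p = 0.0174 by edgeR), and that of BT-T from N was -0.23 ± 0.26 (adjusted p = 0.637). The call in BTPRZ-T ended without BTPRZ-T replicate 2 (adjusted p = 0.0553) and when only the 2 groups were fitted (0.0908), and held in the other 23 of 25 alternatives. BTPRZ-T differed from BT-T by -0.87 ± 0.26, which was not called (adjusted p = 0.127) but was without N replicate 2 (0.0257), without BTPRZ-T replicate 4 (0.0308) and without the 3 libraries that stood apart (0.00282). It was also called by DESeq2 (0.0239) and with the 2 groups fitted alone (0.0454). Tuft cells are a known epithelial source of Ptgs1 and the stroma another. The 5 measured tuft cell markers summed to 62.4 to 74.8 CPM in N replicates 1, 3 and 4, to 18.3 in N replicate 2, to 23.9 to 25.4 across BT-T and 25.2 to 49.2 in BTPRZ-T libraries. The 5 smooth muscle markers summed to 4900 to 10400 CPM in normal colon, 2170 to 3450 across BT-T and 230 to 2750 across BTPRZ-T, and 3 of them were called lower in BTPRZ-T than in N and none in BT-T. The part of either cell type in the Ptgs1 difference was not tested. Jph4 (r = 0.95), Id4 (0.949) and Synm (0.948), an intermediate filament gene of muscle, followed Ptgs1 most closely over the 12 libraries.

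Ptgs2 (chromosome 1, 150100031 to 150108227, plus strand) turned on 1 normal library. Its level was 4.14, 102, 14.4 and 8.71 CPM in N replicates 1 to 4, 59.5, 51.7, 53.0 and 20.3 CPM in BT-T and 74.1, 16.2, 8.37 and 22.3 CPM in BTPRZ-T. N replicate 2, with 1509 reads of the gene, was the highest of all 12 libraries, and the other 3 normal libraries lay below every BT-T library. The mean of N was 32.3 ± 46.7 CPM (SD, n = 4) and 9.09 ± 5.15 CPM (n = 3) without N replicate 2, beside 46.1 ± 17.6 in BT-T and 30.2 ± 29.8 in BTPRZ-T. The log2 difference of BT-T from N was 0.51 ± 0.89 (adjusted p = 0.786) with all libraries and 2.34 ± 0.71 (adjusted p = 0.0471 by edgeR) without N replicate 2, a fold of 5.08. For BTPRZ-T against N it was -0.10 ± 0.89 (adjusted p = 0.966), and 1.73 ± 0.69 (0.0735) without that library. The tumour groups differed by -0.61 ± 0.89 (adjusted p = 0.738), and by -1.90 ± 0.56 (0.0353) without the 3 libraries that stood apart. The neutrophil markers, 5 genes that include S100a8 and S100a9, also stood higher in N replicate 2 (20.8 CPM summed) than in the other normal libraries (1.12 to 2.59), beside 20.2 to 65.3 across BT-T and 10.8 to 62.0 in BTPRZ-T. Their part in the Ptgs2 level was not tested.

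The gene for the inducible PGE2 synthase, Ptges (chromosome 2, 30889471 to 30929863, minus strand), also turned on N replicate 2, with a smaller spread. It stood at 5.58, 17.9, 5.26 and 7.83 CPM in N replicates 1 to 4, at 14.4, 19.9, 17.2 and 24.6 CPM in BT-T and at 24.2, 17.4, 17.3 and 20.3 CPM in BTPRZ-T. Every tumour library was above N replicates 1, 3 and 4, and N replicate 2 lay among the tumours. With all libraries edgeR called neither difference, at 1.06 ± 0.38 in BT-T (adjusted p = 0.11) and 1.12 ± 0.38 in BTPRZ-T (0.0783). The difference in BTPRZ-T was called with all 12 libraries by DESeq2 (adjusted p = 0.0491), by limma with voom (0.0358) and with sample quality weights (3.9e-05), and that in BT-T with the weights alone among these (2.04e-05). Without N replicate 2 both were, at 1.61 ± 0.26 (adjusted p = 0.00193 by edgeR, 3.06-fold) and 1.67 ± 0.26 (0.000855, 3.18-fold). The tumour groups differed from each other by 0.06 ± 0.37 (adjusted p = 0.945). The 3 genes whose log2 CPM followed Ptges most closely over the 12 libraries were Icam1 (Pearson r = 0.963), an adhesion molecule, AF251705 (0.957) and Tnfsf18 (0.948). These correlations, like those given for other genes here, describe 12 libraries in 3 groups and carry no test.

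Of the other synthases, the thromboxane synthase gene Tbxas1 rose in BT-T and the prostacyclin synthase gene Ptgis did not pass the test. Tbxas1 (chromosome 6, 38875404 to 39084585, plus strand) stood at 1.21, 2.03, 1.83 and 2.5 CPM in N, from 21 to 37 reads a library, at 9.34, 11.3, 9.53 and 10.7 CPM in BT-T and at 1.68, 3.06, 1.71 and 16.6 CPM in BTPRZ-T. BT-T lay wholly above N, and BTPRZ-T was split between 3 low libraries and replicate 4, the highest of all. The difference of BT-T from N was 2.43 ± 0.70, a fold of 5.40, just inside the threshold (adjusted p = 0.0492 by edgeR). Leaving out any 1 of 9 libraries ended the call (adjusted p 0.0554 to 0.12), all but BTPRZ-T replicates 1, 3 and 4, while the log2 value stayed between 2.2 and 2.78 over 24 alternatives. BTPRZ-T differed from BT-T by -0.82 ± 0.66 (adjusted p = 0.518), by -2.28 (0.0291) without BTPRZ-T replicate 4 and by -2.09 ± 0.37 (0.00576) without the 3 libraries that stood apart.

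Macrophages and platelets are known sources of Tbxas1. The 6 macrophage markers summed to 42.6 to 157 CPM in N and 424 to 688 CPM in BT-T. In BTPRZ-T they summed to 342, 248, 165 and 1130 CPM in replicates 1 to 4, so replicate 4 was again the highest of all libraries. In edgeR's test, 5 of the 6 were called higher in BT-T than in N and 4 in BTPRZ-T. The 5 platelet markers summed to 1.32 to 12.7 CPM in normal colon, 9.22 to 41.4 across BT-T and 6.78 to 18.3 in BTPRZ-T. Of these 5, Gp1ba and Gp9 were at or near 0 in every library, at most 0.0487 and 0.191 CPM. The other 3 were tested, and Ppbp was called higher than in normal colon for both tumour groups. Its log2 difference was 5.88 for BT-T (adjusted p = 0.00159 by edgeR) and 4.22 for BTPRZ-T (0.00607). Pf4 and Itga2b were not called. The part of these cells in the Tbxas1 difference was not tested.

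**Figure D3:**
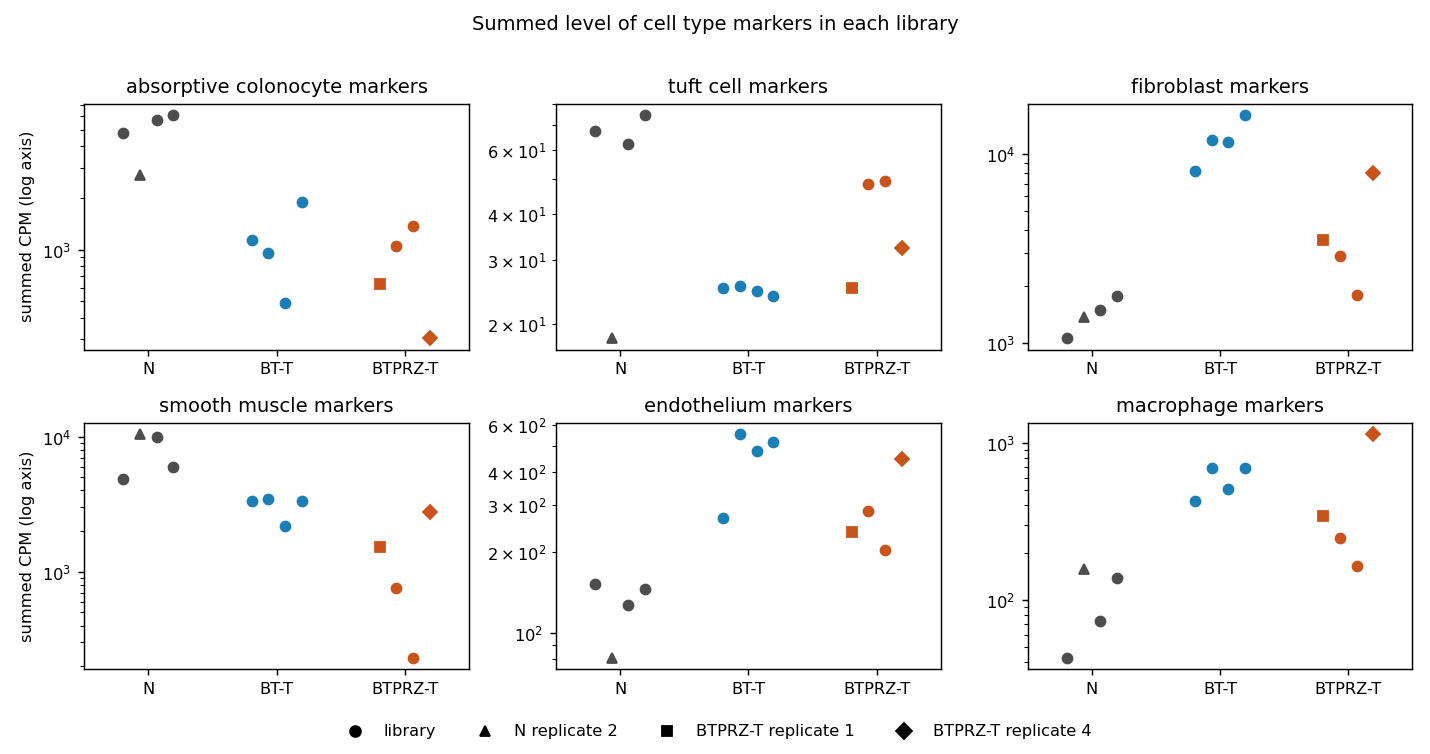
Summed CPM of 6 cell type marker lists on log axes, 1 point per library, with N replicate 2 as a triangle and BTPRZ-T replicates 1 and 4 as a square and a diamond. Macrophage markers come to 42.6 to 157 CPM in N and to 1130 CPM in BTPRZ-T replicate 4, the library with the highest Tbxas1.

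Ptgis (chromosome 2, 167191805 to 167240604, minus strand) stood at 5.93, 12.5, 9.04 and 13.6 CPM in N, at 28.9, 31.1, 21.8 and 42.9 CPM in BT-T and at 20.1, 8.57, 1.49 and 35.0 CPM in BTPRZ-T. All BT-T libraries were above all N libraries, and the BTPRZ-T libraries ran from under the lowest N library to within the BT-T range. The log2 difference of BT-T from N, 1.60 ± 0.66, was not called with the spread of 3 groups (adjusted p = 0.163). It was called when the 2 groups were fitted alone (0.0168), without BTPRZ-T replicate 3 (0.04) and without the 3 libraries that stood apart (0.0278). BTPRZ-T differed from N by 0.67 ± 0.65 (adjusted p = 0.594) and from BT-T by -0.93 ± 0.65 (0.471). Without the 3 libraries that stood apart these values were -0.82 ± 0.62 (0.329) and -2.60 ± 0.64 (0.0181), so the first turned its sign and the second was called. The genes that followed it most closely were Islr (r = 0.953), Igfbp6 (0.952) and Rspo3 (0.936), the last a secreted WNT enhancer made by stromal cells. Fibroblast marker sums were in the same order over the BTPRZ-T libraries, at 3530, 2890, 1810 and 7970 CPM in replicates 1 to 4, and their part in the Ptgis level was not tested.

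Hpgd, the breakdown enzyme, was the most abundant of the 10 transcripts per length in every group and fell in both tumour groups. Hpgd (chromosome 8, 56294585 to 56321043, plus strand) stood at 241, 294, 154 and 151 CPM in N, at 113, 72.7, 55.7 and 88.3 CPM in BT-T and at 61.4, 56.0, 72.4 and 20.0 CPM in BTPRZ-T. No tumour library reached the lowest normal library, and N replicate 2 was the highest of all. Hpgd was 4.00-fold lower in BTPRZ-T than in N (-2.0 ± 0.39 on the log2 scale, adjusted p = 0.00655 by edgeR), a call that held in 25 of 25 alternatives. It was 2.54-fold lower in BT-T (-1.35 ± 0.38, adjusted p = 0.0489), and this call held in 9 of 25. It ended on leaving out any 1 of 10 libraries, all but N replicate 4 and BTPRZ-T replicate 4 (adjusted p 0.0512 to 0.155), with the log2 value between -1.54 and -1.08 throughout. The tumour groups differed by -0.65 ± 0.38 (adjusted p = 0.389). Hpgd is known to be made by mature colonocytes. Of the 7 absorptive colonocyte markers, 5 were called lower in BT-T and 6 in BTPRZ-T, and their part in the Hpgd difference was not tested. Following Hpgd most closely over the libraries were Odf3b (r = 0.971), Hadhb (0.968), an enzyme of fatty acid oxidation, and Lrrc42 (0.967).

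Among the receptors, Ptger3 and Ptger4 moved in opposite directions in BT-T: Ptger3 rose and Ptger4 fell. Ptger3 (chromosome 3, 157566892 to 157645888, plus strand) stood at 7.54, 2.17, 6.97 and 4.79 CPM in N, at 27.0, 29.3, 23.7 and 49.5 CPM in BT-T and at 6.32, 7.04, 2.15 and 8.20 CPM in BTPRZ-T. The BT-T libraries were apart from the other 8, which overlapped each other. Ptger3 was 6.02-fold higher in BT-T than in N (2.59 ± 0.48, adjusted p = 0.00564 by edgeR), and the call held in 25 of 25 alternatives. BTPRZ-T differed from N by 0.14 ± 0.46 (adjusted p = 0.90) and from BT-T by -2.45 ± 0.48 (adjusted p = 0.0426), so the 2 tumour groups were tested to differ. That last call held in 14 of 25 alternatives, and leaving out any 1 of 10 libraries, all but N replicate 2 and BTPRZ-T replicate 4, ended it (adjusted p 0.0539 to 0.162), with a log2 value of -2.79 to -2.17 throughout. With the replicate number as a block its adjusted p was 0.0947. Nat8l (r = 0.954), Adcy7 (0.947), an adenylyl cyclase, and Fgd5 (0.936), known in endothelium, followed Ptger3 most closely. The 5 endothelial markers summed to 80.5 to 152 CPM in normal colon, 270 to 553 across BT-T and 205 to 448 in BTPRZ-T, and the fibroblast sums given above were likewise highest in BT-T on the median. The part of either in the Ptger3 difference was not tested.

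Ptger4 (chromosome 15, 5206661 to 5244187, minus strand) stood at 66.9, 20.2, 82.1 and 77.9 CPM in N, at 23.9, 22.5, 24.1 and 19 CPM in BT-T and at 17, 20.8, 26.9 and 10 CPM in BTPRZ-T. N replicate 2 lay among the tumours, and the other 3 normal libraries were above all 8 of them. Ptger4 was 3.30-fold lower in BTPRZ-T (-1.72 ± 0.41, adjusted p = 0.0167 by edgeR), a call that held in 24 of 25 alternatives and ended with the 2 groups fitted alone (0.0762). It was 2.76-fold lower in BT-T (-1.46 ± 0.40, adjusted p = 0.0417), which held in 12 of 25. Leaving out any 1 of 9 libraries ended the latter call (adjusted p 0.0543 to 0.119), all but N replicate 2, BTPRZ-T replicate 3 and BTPRZ-T replicate 4. Without N replicate 2 the values were -1.76 ± 0.27 in BT-T (adjusted p = 0.00149) and -2.02 ± 0.27 in BTPRZ-T (0.000367). The tumour groups differed by -0.26 ± 0.40 (adjusted p = 0.747). The genes that followed Ptger4 most closely were Pank3 (r = 0.98), Golph3 (0.976) and Txnrd1 (0.966).

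Ptger1 and Ptger2 were low and not called with all libraries. Ptger2 (chromosome 14, 44988195 to 45003820, plus strand) stood at 2.36, 1.49, 3.49 and 2.29 CPM in N, at 4.84, 3.90, 3.04 and 3.39 CPM in BT-T and at 4.19, 1.24 and 1.1 CPM in BTPRZ-T replicates 1 to 3. BTPRZ-T replicate 4 held 0 reads of it, which allows up to 0.131 CPM at 3 counts, for counting error only. Its differences had standard errors of 0.93 to 0.94 on the log2 scale, and the adjusted p were 0.729, 0.78 and 0.507. Without the 3 libraries that stood apart it was called in BTPRZ-T, at -1.15 ± 0.37 against N (adjusted p = 0.0366 by edgeR) and -1.69 ± 0.36 against BT-T (0.0107). Ptger1 (chromosome 8, 83666678 to 83672753, plus strand) stood at 4.32, 0.135, 4.84 and 7.02 CPM in N, at 6.24, 7.94, 5.37 and 7.35 CPM in BT-T and at 6.20, 3.26, 1.43 and 3.62 CPM in BTPRZ-T, with adjusted p of 0.614, 0.93 and 0.544. N replicate 2 held 2 reads of it. Its reads ran from 2 to 179 a library. Without the 3 libraries its difference of BTPRZ-T from BT-T was called, at -1.5 ± 0.40 (adjusted p = 0.023 by edgeR), and that from N was -1.12 ± 0.41 (0.0566).

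The balance between genes was read within each library as ratios of reads per kilobase of exon, which do not depend on library size. Hpgd led with 125 CPM per kilobase in N on the mean of 4, followed by Ptgs1 at 17.1, Ptger4 at 9.29 and Ptgs2 at 7.06, or 1.98 without N replicate 2. In BT-T the order was Hpgd at 49.0, Ptgs1 at 14.5, Ptgis at 12.1, Ptgs2 at 10.1 and Ptger3 at 5.69 CPM per kilobase, ahead of Ptges at 4.84 and Ptger4 at 3.37, and the ranges of Ptgs1 and Ptgis overlapped. In BTPRZ-T it was Hpgd at 31.2, Ptgs1 at 7.98, Ptgs2 at 6.60, Ptgis at 6.34 and Ptges at 5.04, where those after Hpgd had ranges that overlapped. These lengths merge the exons of all transcripts of a gene. Per kilobase of the longest transcript instead, Ptger4 (5.94) passed Ptges (5.22) in BT-T, and Ptgis (7.73) passed Ptgs2 (6.79) in BTPRZ-T. Ptger1, Ptger2 and Tbxas1 had the 3 lowest mean levels in every group. Per kilobase of merged exons these were at most 0.747 CPM in N and BTPRZ-T and at most 1.23 CPM in BT-T.

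The ratio of Ptgs2 to Hpgd, synthesis over breakdown, was 0.00633, 0.128, 0.0344 and 0.0212 in N replicates 1 to 4. It was 0.193, 0.261, 0.35 and 0.0845 in BT-T and 0.444, 0.106, 0.0425 and 0.41 in BTPRZ-T. N replicates 1, 3 and 4 were below all 8 tumour libraries, and N replicate 2 was above 3 of them. Hpgd exceeded Ptgs2 per length in every library. The ratio of Ptgs2 to Ptgs1 was 0.0607, 1.65, 0.17 and 0.0884 in N, 0.309 to 0.956 across BT-T and 0.294 to 2.13 in BTPRZ-T, and only N replicate 2 and BTPRZ-T replicate 1 were above 1. The ratio of Ptger3 to Ptger4, a pair set side by side after their values were seen, was 0.132, 0.126, 0.0993 and 0.0719 in N. It was 1.32, 1.52, 1.15 and 3.05 in BT-T and 0.436, 0.395, 0.0932 and 0.955 in BTPRZ-T. This ratio placed N replicate 2 within the range of the other normal libraries, and the BT-T libraries were above all others and the only ones in which Ptger3 exceeded Ptger4 per length.

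**Figure D4:**
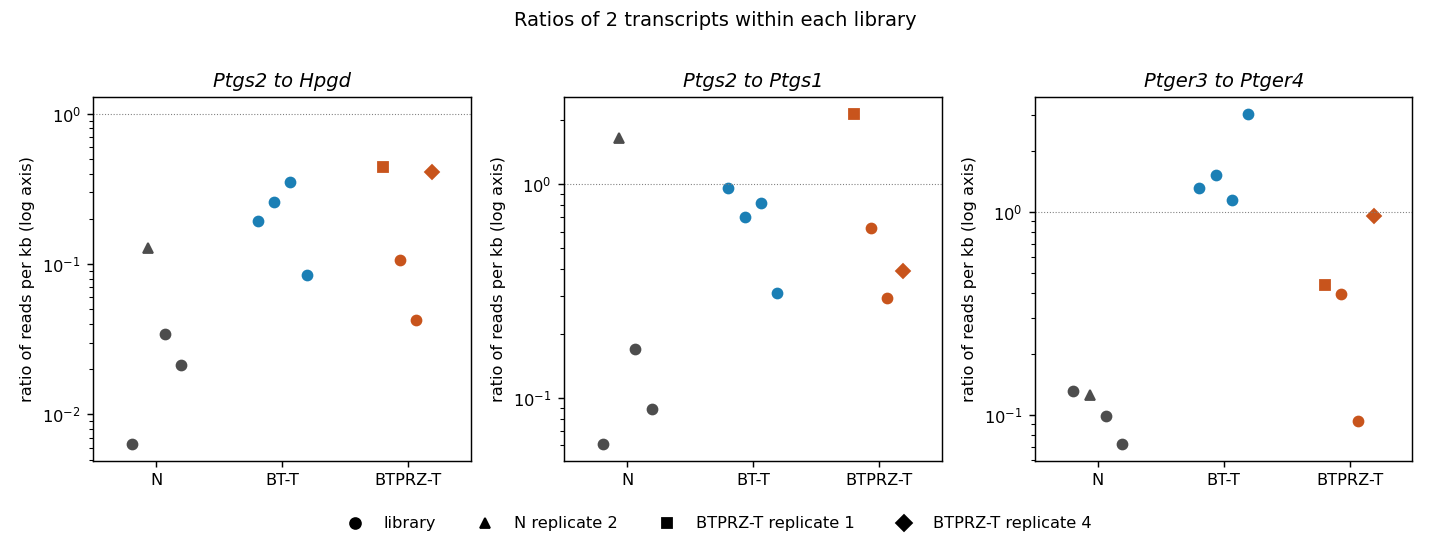
Each point is 1 library, and the y axis (log scale) is the ratio of reads per kilobase of exon of the 2 genes in the title, with a dotted line at 1. Triangles mark N replicate 2, squares BTPRZ-T replicate 1 and diamonds BTPRZ-T replicate 4. In the right panel all 4 BT-T libraries are at 1.15 or above and all 4 N libraries at 0.132 or below.

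Around these enzymes and receptors, 43 further genes of the pathway were listed in 6 groups, and 37 of them were tested. With all libraries 2 were called higher and 1 lower in BT-T than in N, 3 higher and 0 lower in BTPRZ-T than in N, and none between the tumour groups, shares near those of all genes given above. Abcc4, a pump that exports PGE2 from cells, rose in both tumour groups, from 35.1 ± 10.3 CPM in normal colon to 117 ± 33.3 in BT-T (1.74 ± 0.33, adjusted p = 0.006 by edgeR) and 97.1 ± 32.7 in BTPRZ-T (1.47 ± 0.32, 0.0121). No tumour library was as low as the highest normal library, at 48.3 CPM. Cbr1, a carbonyl reductase that can convert PGE2 to PGF2alpha, fell in BT-T from 124 ± 93.6 to 44.0 ± 6.77 CPM (-1.49 ± 0.40, adjusted p = 0.0365), and by 0.82 without N replicate 2 (0.0148). Slco2a1, the importer that delivers prostaglandins for breakdown, stood at 152 ± 132 CPM in normal colon, 154 ± 48.4 across BT-T and 51.3 ± 8.68 in BTPRZ-T. It was not called in BTPRZ-T against N with all libraries (-1.57 ± 0.60, adjusted p = 0.116) and was without N replicate 2 (-1.94 ± 0.36, 0.00227).

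In the leukotriene and lipoxygenase branch, 1 of 8 tested genes was called in each tumour group against N, and it was Alox15, a lipoxygenase. It held 3 reads over the 4 N libraries, 199 over BT-T and 72 over BTPRZ-T, a ratio of 45.6 (95% exact counting interval 15.4 to 223) and of 19.8 (6.51 to 98.2), with adjusted p = 0.0234 and 0.043 by edgeR. These intervals pool the reads of 4 libraries and cover counting error only, not the spread between libraries. The level stayed low, at 2.05 ± 0.864 CPM in BT-T and 1.03 ± 0.902 in BTPRZ-T, where 1 library had none. Of 8 tested phospholipases, which release arachidonic acid from membranes, none was called with all libraries. Pla2g2a stood at 104 to 182 CPM in BTPRZ-T and 6.74 to 24.1 CPM in BT-T, and N ran from 2.19 to 112 CPM. Its difference of BTPRZ-T from N was 1.94 ± 0.96 (adjusted p = 0.231), and 4.27 ± 0.66 (0.00089) without N replicate 2.

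Of 9 genes that cyclic AMP is known to induce, 1 was called with all libraries: Sik1, a kinase, rose from 17 ± 8.78 CPM in N to 45.5 ± 22.6 in BTPRZ-T (1.42 ± 0.43, adjusted p = 0.0484 by edgeR). It was at 44.2 ± 13.4 CPM in BT-T (1.38 ± 0.43, 0.0662). Without the 3 libraries that stood apart the call of Sik1 passed from BTPRZ-T (0.88 ± 0.34, 0.0707) to BT-T (1.20 ± 0.30, 0.0135). In that fit Sik1, Crem (0.0338) and Pde4b (0.0358), 3 of the 9, were called higher in BT-T and 1 was lower, where 28.7% of all genes were called. In BTPRZ-T 0 were higher and 1 was lower (34.9%). The lower gene was Nr4a2 in both (-1.26 ± 0.25, 0.00448, and -1.62 ± 0.32, 0.00417). Nr4a2 was also called lower in BTPRZ-T without N replicate 2 (-2.04 ± 0.45, 0.00576). The median log2 fold change of the 9 was 0.13 in BT-T and 0.15 in BTPRZ-T, beside -0.10 for all genes in each, and 0.32 and 0.01 without N replicate 2, beside -0.03 and 0.01. Of the receptors for other prostanoids, 3 of 5 were tested and none was called. Ptgir, the prostacyclin receptor, stood at 1.44 ± 0.358 CPM in normal colon, 4.19 ± 1.59 across BT-T and 1.15 ± 0.475 in BTPRZ-T, and Tbxa2r, the thromboxane receptor, at 3.60 ± 1.34, 2.87 ± 0.926 and 1.05 ± 0.534 CPM. Without N replicate 2, Tbxa2r was called in BTPRZ-T against N (-1.94 ± 0.58, adjusted p = 0.0246) and Ptgir in BTPRZ-T against BT-T (-1.86 ± 0.50, 0.0254). None of the 4 other synthases tested was called. Of the 6 genes not tested, Akr1b3 held 0 reads over the 12 libraries, which allows up to 0.0128 CPM, and Pla2g4b 1, Ptgds 9, Ptgdr2 12, Ptgdr 42 and Cysltr2 42 reads.

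Without N replicate 2, 3 of the 37 were called in BT-T against N, 10 when BTPRZ-T was set against N and 8 between the tumour groups, where 13.5%, 32.3% and 18.0% of all genes were. Without the 3 libraries that stood apart the counts were 14, 10 and 12, beside 28.7%, 34.9% and 24.5%.

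**Figure D5:**
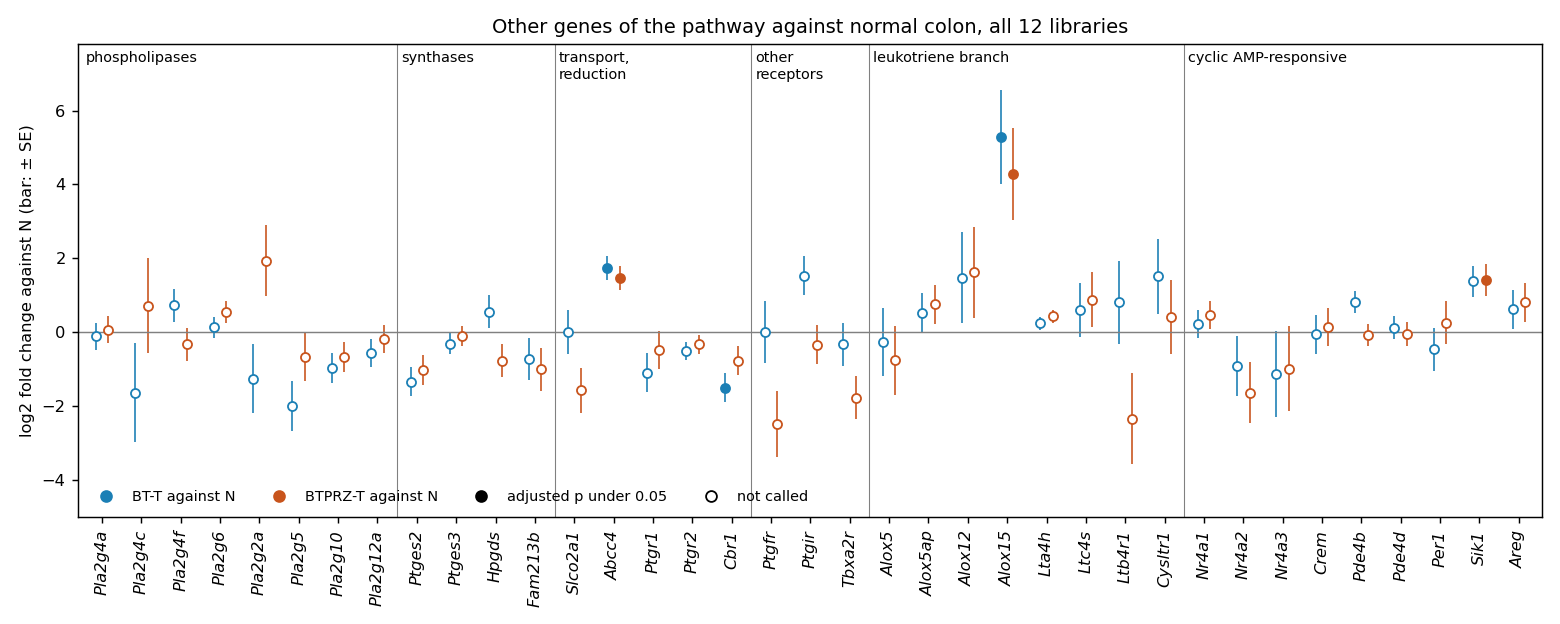
The y axis is the log2 fold change against N with bars of ± 1 standard error, for the 37 tested genes of the 6 pathway lists, in BT-T (blue) and BTPRZ-T (orange), filled where the adjusted p was under 0.05. The filled points are Abcc4 and Alox15 in both groups, Cbr1 in BT-T and Sik1 in BTPRZ-T.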

How the data were processed

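A stranded poly(A) kit and single-end sequencing of 100 bases were used, per the labels' protocols. Per the submitters' processing notes, bcl2fastq 2.20, STAR 2.4.2a, HTSeq, edgeR 3.16.5 and limma were run with the mm10 genome, with no order given. The values the authors deposited are raw read counts per gene, 1 unstranded and 2 stranded columns per library, with no normalization. Tests use the stranded column that held nearly all gene reads, with 0.819 to 0.994% as many on the opposite strand.

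Genes with few reads were removed by filterByExpr (edgeR 4.0.16, R 4.3.3), TMM factors were applied, and a quasi-likelihood model with 1 mean per group was fitted to all 12 libraries (glmQLFit, robust; glmQLFTest, two-sided). The common biological coefficient of variation was 0.501. CPM is a gene's reads over the TMM-scaled library total. A ± gives the SD over 4 libraries for a mean and the standard error of the fit for a log2 difference. Positions and exon lengths are from GENCODE M21 on GRCm38, the build also called mm10. Replicate numbers did not pair the samples (correlation of same-numbered libraries -0.297 to 0.315), so they were not a term. The fit was also run on simulated counts with known changes. No simulated library stood apart from its group, so that run does not show how such libraries affect the calls.

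Named genes are the 10 genes, list genes called in a comparison (up to 3 a list), the 3 closest genes by correlation, and markers of summed lists. Further pathway genes (Slco2a1, Pla2g2a, Ptgir, Tbxa2r, Nr4a2, Crem, Pde4b and those with few reads) were named after their values were seen. The genes and lists were chosen with earlier results of these data known. As alternatives, the fit was repeated with upper quartile or RLE factors, no filter, 2 CPM in 4 libraries, DESeq2 1.42.0, limma 3.58.1 with voom, the unstranded column, the replicate number as a block, no robust estimation, the compared groups alone, removal of a trend on transcript length, 3 libraries fewer and each library left out. Voom with sample quality weights was added after seeing the data.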

Additional observations from a re-analysis of the deposited data

Results flagged for a closer look

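In each group of 4 libraries the highest and the lowest level of each of the 10 genes was checked for a wide gap to the rest. This made 30 groups, and 2 were marked. The cutoff marks about 1 in 20 groups by chance where values are normally distributed, which CPM on a linear scale need not be. Ptgs2 stood at 102 CPM in N replicate 2, where the other normal libraries had 4.14 to 14.4 CPM. Tbxas1 stood at 16.6 CPM in BTPRZ-T replicate 4, where the other BTPRZ-T libraries had 1.68 to 3.06 CPM. The level of Ptger3 differed in BTPRZ-T from BT-T by -2.45 on the log2 scale (adjusted p = 0.0426 by edgeR). That call ended on leaving out any 1 of 10 libraries (adjusted p 0.0539 to 0.162).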

How the results depend on the processing

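Ptger3 in BT-T against N and Hpgd in BTPRZ-T against N kept their direction and call in 25 of 25 alternatives, and Ptgs1 and Ptger4 in BTPRZ-T against N in 23 and 24 of 25. The other calls lay near the threshold. The cause of the changes below was not tested. DESeq2 gave no adjusted p for Ptgs2 and Tbxas1, so neither is counted there. Ptger1 and Ptger2 rest on few reads, from 0 to 179 a library.

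In BT-T against N, 2 of the 10 genes were called (4 in the report) with no filter, voom, the unstranded column or the trend on transcript length removed, and 7 with 3 libraries fewer or quality weights. All genes called came to 2394 by DESeq2, 4359 with 3 libraries fewer and 6155 with quality weights, against 1274. In BTPRZ-T against N, 1 of the 10 was called with the groups fitted alone, 5 with 3 libraries fewer and 6 with quality weights, and all genes called came to 3048 by DESeq2, 647 with the groups alone, 5311 with 3 libraries fewer and 8207 with quality weights, against 1760. In BTPRZ-T against BT-T, 2 of the 10 were called by DESeq2 or with the groups alone and 7 with 3 libraries fewer or quality weights. All genes called there came to 1217 by DESeq2, 226 with voom, 1568 with the groups alone, 3723 with 3 libraries fewer, 213 with the length trend removed and 7732 with quality weights, against 112.

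With the replicate block, 2, 3 and 0 of the 10 genes and 945, 1160 and 1 of all genes were called in the 3 comparisons, the 2 with normal colon first.

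Leaving out 1 library, genes called ranged from 624 (without BT-T replicate 2) to 2030 (without N replicate 2) in BT-T against N, with 1 to 4 of the 10. They ranged from 1076 (without N replicate 1) to 4855 (without N replicate 2) in BTPRZ-T against N, with 2 to 4 of the 10. In BTPRZ-T against BT-T the range was 0 to 2714 (without N replicate 2), with 0 to 3 of the 10. The 0 was found without BT-T replicate 2, without BT-T replicate 4 and without BTPRZ-T replicate 3. With all 12 libraries, 2564 genes had an unadjusted p under 0.05 by edgeR in that comparison.

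The log2 fold changes that changed sign were none of those called with all libraries. In BT-T against N, Ptgs2 was -0.061 with the length trend removed. In BTPRZ-T against N, Ptgs2 was 0.53 with voom, 0.39 with the replicate block, 0.51 with 3 libraries fewer, 1.33 with quality weights and -1.05 to 1.73 leaving out 1 library. Ptger1 was 0.47 with voom, 0.064 with the unstranded column, 0.11 with the length trend removed and -0.57 to 0.22 leaving out 1 library. Ptgis was -0.82 with 3 libraries fewer and -0.019 to 1.05 leaving out 1 library. Ptger3 was -0.40 with 3 libraries fewer, -0.12 with quality weights and -0.12 to 0.42 leaving out 1 library. In BTPRZ-T against BT-T, Ptges was -0.01 with the groups alone, -0.14 with 3 libraries fewer, -0.11 with quality weights and -0.055 to 0.20 leaving out 1 library, and Ptger4 was 0.081 with 3 libraries fewer.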
